A study of Mus musculus with 58 samples.

Results

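The lungs of vehicle-treated mice were compared with the livers of vehicle-treated mice, to describe how the normal transcriptomes of the organs differ on the same array design. The members are the 9 arrays whose labels name the vehicle group (D0) and lung or liver, of 58 arrays in the series: 5 lungs (mice 1 to 5) and 4 livers (mice 1, 2, 3 and 5). Mice 1, 2, 3 and 5 therefore gave both organs, and mouse 4 gave a lung array alone. The methods describe fewer vehicle mice at necropsy than the lung labels number, and every labeled array was used. All were male Muta™Mouse, a transgenic strain that carries a bacterial lacZ reporter for scoring mutations, aged about 13 weeks. They received olive oil by oral gavage daily for 28 days, and the tissue was taken 72 hours after the last dose. The other arrays hold lung and liver of mice given indeno(1,2,3-cd)pyrene, a polycyclic aromatic hydrocarbon, at 12.5, 25 or 50 mg/kg-bw/day, and forestomach of all groups. Each array measured tissue RNA labeled with Cy5 together with Cy3-labeled universal mouse reference RNA, a pool of RNA from mouse cell lines. Values below are log2(Cy5/Cy3) after loess normalization within each array, and every difference is lung minus liver on that log2 scale, so a positive difference is higher in lung.

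The lung is mostly a thin alveolar wall: flat alveolar type 1 cells lie against capillary endothelium, cuboidal type 2 cells make surfactant, and the airways are lined by ciliated and club cells. The liver is mostly hepatocytes, which secrete plasma proteins and bile, store and release glucose, dispose of nitrogen and detoxify lipophilic compounds, beside sinusoidal endothelium, Kupffer macrophages, bile duct cells and stellate cells. RNA came from random sections of exsanguinated mice, and per the methods the right lobe of the lung and the left lobe of the liver were collected. Each section holds many cell types. A lower value for the genes of a cell type can therefore mean fewer of those cells or less RNA per cell, and these cannot be told apart.

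The defining markers of hepatocytes (Alb) and of alveolar type 2 cells (Sftpc) followed the labeled organs on all 9 arrays. Cy5 was well above background at 53.0 to 85.4% of probes on the lung arrays and at 37.6 to 41.7% on the liver arrays. The array of lung mouse 3 had the highest share, 85.4%, and the dosed lungs on the same slide read 83.85 to 90.71%. Each vehicle lung lay on a different slide, so mouse and slide cannot be told apart among the vehicle lungs. Array profiles correlated at r = 0.934 to 0.964 among lungs, 0.965 to 0.979 among livers and 0.352 to 0.395 between the organs. Lung arrays lay on other slides than liver arrays and were read with another version of the scanner software, so slide, software and organ cannot be told apart. In the reference channel, which carried the same RNA everywhere, 2062 of 55681 probes (3.70%) nevertheless differed between the lung and the liver arrays at the thresholds given below. Of these, 859 had the higher signal on lung arrays (1.54% of all probes) and 1203 on liver arrays (2.16%). These Cy3 values were taken after loess and scaling between arrays. With Cy3 centered on array medians instead, 507 probes differed, so the count depends on the processing.

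A probe was called where limma gave a Benjamini-Hochberg adjusted p, taken over all 55681 probes, of 0.05 or less and where the organs differed by 1.5-fold or more. In all 15112 probes were called (27.1%), 8845 higher in lung (15.9%) and 6267 higher in liver (11.3%). Without lung 4, the mouse with no liver array, 15058 were called. A difference of at least 4-fold was reached by 2042 probes in lung (3.67%) and by 1657 in liver (2.98%). Centering arrays on their median in place of loess gave 86.8% of calls to lung, against 58.5% here, so the balance of directions depends on the normalization. When each gene was represented by its brightest probe, 5215 of 20651 genes were higher in lung (25.3%), 3424 were higher in liver (16.6%) and 12012 were not called (58.2%), so 41.8% were called. These shares are the background for the counts of named genes below. The median difference over genes was 0.016.

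**Figure D1:**
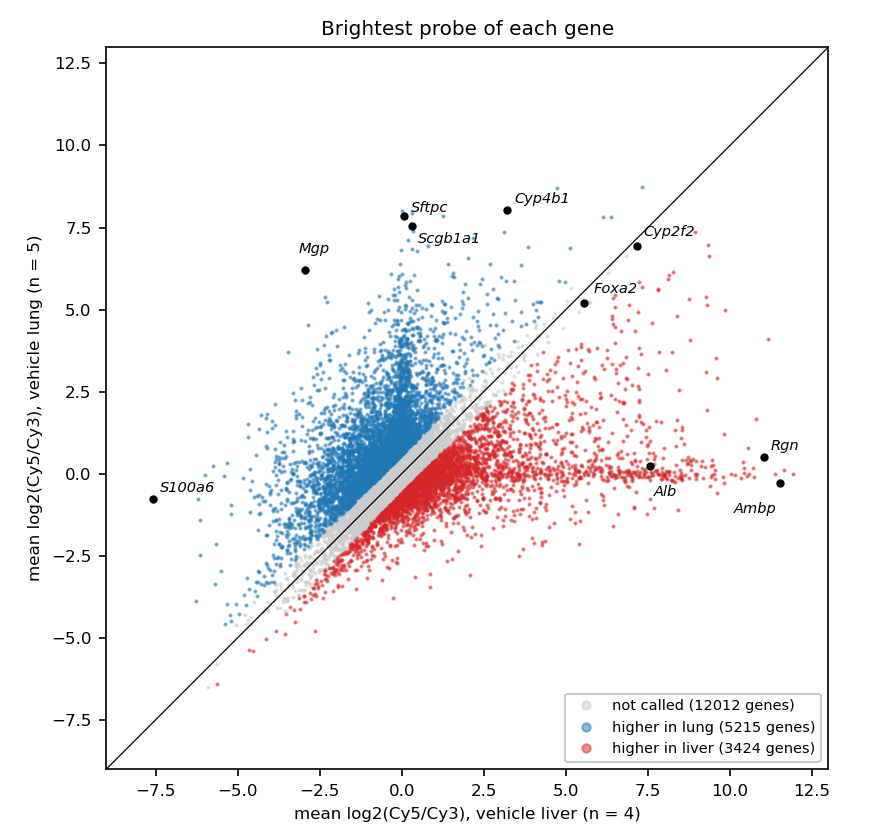
Mean log2(Cy5/Cy3) of the brightest probe of each of 20651 genes in vehicle liver (horizontal, n = 4) and vehicle lung (vertical, n = 5), colored by call; the line marks equal values and 10 genes of the text are named. Genes of lung such as Sftpc and Scgb1a1 lie high near a liver value of 0, genes of liver such as Alb and Ambp lie far right near a lung value of 0, and Cyp2f2 and Foxa2 lie near the line with high values in both organs.

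Among genes detected on all 9 arrays with no overlap between organs, the widest difference toward lung was that of Mgp, matrix Gla protein, an inhibitor of calcification made by cartilage and smooth muscle. Its values in lungs 1 to 5 were 5.87, 6.62, 6.22, 6.30 and 6.06, and in livers 1, 2, 3 and 5 were -2.93, -3.21, -2.95 and -2.74. All lungs lay above all livers, and the difference was 9.17 ± 0.14 (SE; adjusted p = 3.51e-14, limma). It was followed by Cbr2 (7.48), a carbonyl reductase abundant in lung, the actin-severing gelsolin gene Gsn (7.17), Sparcl1 (7.06), S100a6 (6.82), the surfactant collectin Sftpd (6.59), the lysozyme gene Lyz1 (6.52), Tspan13 (6.43), the alveolar type 1 membrane gene Emp2 (6.38) and Ctla2a (6.24). S100a6 was below the reference in both organs, at -0.76 ± 0.13 (SD, n = 5) in lung and -7.58 ± 0.37 (SD, n = 4) in liver.

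Toward liver the widest difference under the same conditions was that of Rgn, regucalcin, a calcium-binding lactonase of ascorbate synthesis in the mouse. Lungs 1 to 5 read 0.63, 0.44, 0.43, 0.51 and 0.60, and the livers read 11.52, 11.14, 10.56 and 10.97. The difference was -10.53 ± 0.15 (adjusted p = 2.91e-14). Next came the fatty acid transporter Slc27a2 (-9.11), the heme scavenger hemopexin Hpx (-9.05), the inter-alpha-trypsin inhibitor chain Itih3 (-8.63), the liver-secreted class I molecule H2-Q10 (-8.62), the gluconeogenic enzyme Fbp1 (-8.60), the bile acid hydroxylase Cyp2c70 (-8.56), the glucagon receptor Gcgr (-8.43), Azgp1 (-8.40) and prothrombin F2 (-8.39). H2-Q10 differed by -4.17 at its brightest probe, so its probes disagreed in size. In the 20 genes named in these paragraphs no liver array overlapped a lung array, which the rule required.

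Other genes were not well above background on any array of the dimmer organ, and for these a bound is given: the mean of the brighter organ's Cy5 signal over the detection floor of the dimmer one, after loess and scaling between arrays. Such bounds rest on Cy5 alone and on a design without dye swaps. They leave out Cy3, so they can exceed the fold of the ratio where the reference signal moved the same way, as it did for Sftpc, Sftpb, Myh6 and Ager. Among the bounds in lung were at least 7450-fold for surfactant protein C (Sftpc), at least 1077-fold for surfactant protein B (Sftpb), at least 419.8-fold for the lipid-binding gene Sec14l3 and at least 215-fold for the cardiac myosin gene Myh6. Among those in liver were at least 3274-fold for the aldo-keto reductase Akr1c6, at least 2009-fold for apolipoprotein H (Apoh) and at least 1594-fold for the mannose-binding lectin Mbl2. Probes of Serpina3k, Mup5 and Mup17 gave higher bounds than these in liver, but they belong to families of near-identical copies whose probes may cross-hybridize. In all 1270 of the 5215 genes called in lung were above background on no liver array. In the other direction 118 of the 3424 genes called in liver were above background on no lung array, and 285 when the array of lung mouse 3 was left out. Of these 118 genes, 89 were above background on a liver array and 29 on no array of either organ. A further 109 genes called in liver were above background on lung arrays and on no liver array. Over all 20651 genes, 7978 were above background on no liver array and 1636 on no lung array. The 1270 and the 118 genes made up smaller shares of their calls than these did of all genes. Among genes not called, 5082 were above background on lung arrays alone and 30 on liver arrays alone.

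For some of the widest differences the ratio differed less than Cy5 alone did. Both channels were taken after loess and scaling between arrays, so these Cy3 values also depend on Cy5 and are not the measured signal. For Sftpc, Cy5 processed in this way differed by 13.03 on the log2 scale. Its Cy3 value was also 5.25 higher on the lung arrays, which left a ratio difference of 7.78. The same held for Scgb1a1, with Cy3 5.35 higher on lung arrays, and for Alb in the other direction, with Cy5 -12.86 and Cy3 -5.51. Of 130 probes whose reference signal differed by 4-fold or more, 97 shifted in the same direction as the tissue ratio. Over all probes called in Cy3 the directions were mixed. Of the 859 higher on lung arrays, the ratio was called in lung for 240 and in liver for 251. Of the 1203 higher on liver arrays, the ratio was called in liver for 376 and in lung for 419. Across all probes the median absolute shift was 0.162 in Cy3 and 0.207 in the ratio. Of the 15112 probes called by ratio, 1286 (8.51%) were also called in Cy3. The cause of these shifts was not tested.

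All 12 measured genes of surfactant and alveolar type 2 cells were higher in lung (25.3% of all genes were), with a median difference of 4.51. Sftpc, the hydrophobic surfactant protein that defines these cells, read 7.31, 7.74, 7.80, 8.20 and 8.25 in lungs 1 to 5. The livers read -0.09, 0.07, 0.10 and 0.24, and none of their arrays was above background. Sftpb differed by 6.43, Sftpa1 by 6.32, and the lamellar body protease gene Napsa by 6.50, with a bound of at least 65.4-fold. The lipid transporter Abca3, which loads surfactant into lamellar bodies, was above background in all livers and differed less, by 2.12 ± 0.16. The mean over the 12 genes lay between 4.43 and 4.66 in the 5 lungs and between -0.29 and -0.18 in the livers, so the lungs were close to each other in this group.

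The 9 alveolar type 1 genes were also higher in lung without exception, with a median of 5.66. The water channel Aqp5 had the widest difference, 7.71, with a bound of at least 186-fold. Akap5, an anchoring protein for protein kinase A, differed by 6.95, and Ager, the receptor for advanced glycation end products that marks these cells, by 5.66 (at least 178-fold). Hopx, a homeodomain cofactor, was the exception in size at 0.61 ± 0.16, and its organs overlapped: lungs 4.43, 4.71, 4.79, 4.81 and 5.12, livers 3.85, 4.67, 4.06 and 4.05. Its Cy5 difference was 3.27 and its Cy3 difference 2.66, and its call was lost when lung 5 or liver 1, 3 or 5 was left out (0.51 to 0.58), and with the scanner's own ratio (0.049). Rtkn2, also fixed as a marker of this cell type, had no probe here.

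**Figure D2:**
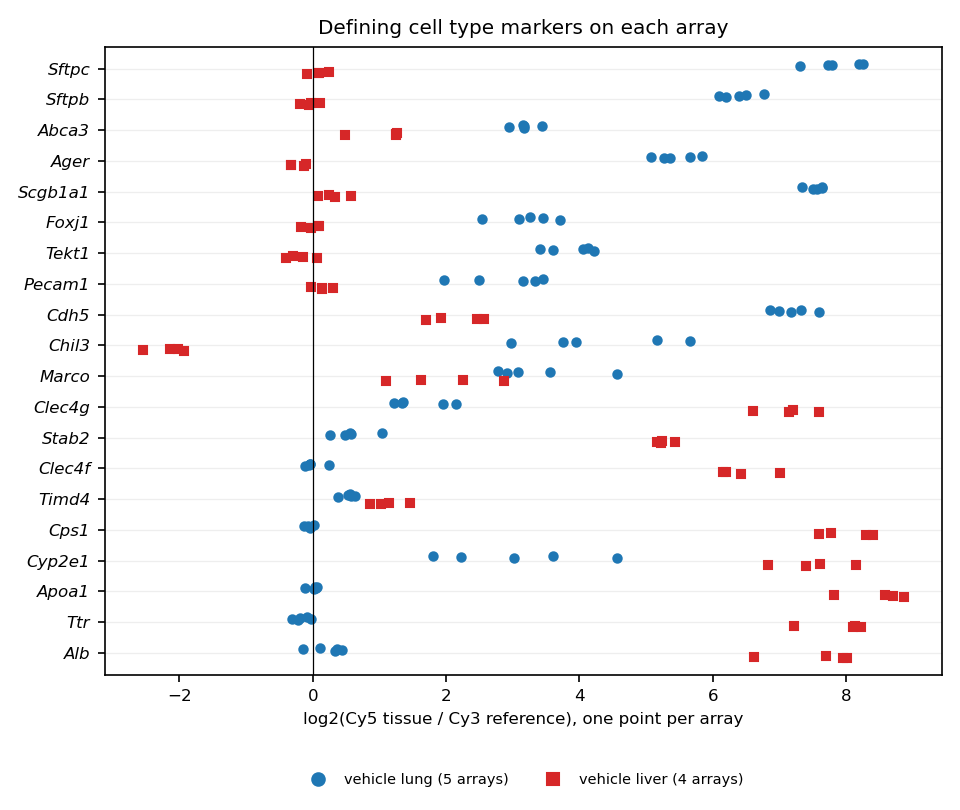
log2(Cy5/Cy3) of 20 defining markers on each vehicle array, lung as circles (5 arrays) and liver as squares (4 arrays), from alveolar, airway, endothelial and macrophage markers at the top to hepatocyte markers at the bottom. Among the markers drawn, Marco is the marker whose organs overlap, Sftpc separates by 7.78 and Alb by -7.35. Hopx, whose organs also overlap, is not drawn.

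In the airway lists, 8 of 9 club cell and secretory genes and 11 of 13 ciliated cell genes were higher in lung. The club cell secretoglobin Scgb1a1 read 7.57, 7.50, 7.64, 7.34 and 7.64 in the lungs and 0.34, 0.08, 0.57 and 0.24 in the livers, a difference of 7.23 ± 0.11 with little spread between mice. Cyp2f2, a P450 known from club cells and also from periportal hepatocytes, was not called. Its lungs read 6.69, 6.63, 7.01, 7.08 and 7.29 and its livers 7.39, 7.29, 6.63 and 7.40, a difference of -0.24 (adjusted p = 0.33). The sign of that difference turned positive when Cy5 was used alone (1.43) and with median centering (0.18). Of the ciliary genes, the tubulin regulator Tppp3 differed by 5.93 (at least 89.6-fold), Ccdc153 by 5.48 (at least 55.6-fold), the defining ciliary tektin Tekt1 by 4.08 (at least 23.3-fold) and the ciliogenesis factor Foxj1 by 3.22 (at least 13.1-fold). The axonemal dynein gene Dnaic1 was higher in liver (-1.43), and its livers read 3.71, 4.20, 2.67 and 4.08 against 1.84 to 2.67 in lung. Its call was lost with median centering (-0.29).

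Secretory genes of the larger airways varied between the lungs far more than Scgb1a1 did. Bpifa1, a secreted antimicrobial protein of upper airway epithelium, read 4.54, 2.90, 4.80, 5.01 and 7.70 in lungs 1 to 5 and differed from liver by 5.10 ± 0.66 (at least 39.5-fold). The lectin gene Reg3g read 2.76, 0.24, 1.54, 2.64 and 5.91, and the mucin gene Muc5b read 2.95, 0.54, 1.69, 3.28 and 4.98. Lung 5 was highest and lung 2 lowest in all 3 genes, and the call of Reg3g was lost with limma's trend and robust options (adjusted p = 0.0818) and with Cy5 alone (adjusted p = 0.0567). Over the 9 club and secretory genes lung 5 was highest for 8 and lung 2 lowest for 6, and the mean of the group ranged from 2.66 to 5.44 in the lungs and from 0.64 to 0.69 in the livers. Reg3g had an SD of 2.10 over the lungs, against a median SD of 0.158 over all genes.

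Endothelial genes were higher in lung for 17 of 18 members, with a median of 2.94. With the scanner's own ratio 11 were called in lung, with a median of 1.96. Cdh5, the cadherin of endothelial junctions, read 7.59, 7.17, 7.00, 6.86 and 7.33 in lung and 1.70, 2.57, 2.47 and 1.92 in liver, a difference of 5.03 ± 0.19. Tmem100, a membrane protein of lung endothelium, differed by 5.85 (at least 62.2-fold), Vwf by 4.02 and Pecam1 by 2.74. The vascular endothelial growth factor receptor Kdr was the member not called, at -0.31, and it changed sign with Cy5 alone (0.31) and with median centering (0.70). The 11 genes of clotting control and clot lysis at the vessel wall were all called in lung, led by thrombomodulin Thbd (6.31 ± 0.23) and Anxa2 (4.28).

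Genes of the liver's own sinusoidal endothelium ran the other way, with 8 of 10 higher in liver and a median of -2.22. The lectin Clec4g read 7.15, 7.60, 6.60 and 7.21 in the livers and 1.22 to 2.15 in the lungs, a difference of -5.54 ± 0.22. The hyaluronan scavenger Stab2 differed by -4.68 ± 0.13. Lyve1, a hyaluronan receptor also known from lymphatic vessels, was called in lung at 4.47 ± 0.44 with lungs from 5.02 to 7.53 and livers from 1.23 to 2.24. Stab1 was not called (-0.25), and its sign turned with Cy5 alone (0.45) and with median centering (0.82).

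Macrophage genes split by the organ that the cells are known from. Of 10 alveolar macrophage genes 9 were higher in lung, with a median of 3.27. The chitinase-like gene Chil3 read 2.97, 3.75, 3.94, 5.66 and 5.16 in lung and -1.93 to -2.55 in liver, a difference of 6.46 ± 0.43 and a bound of at least 107-fold. The ribonuclease gene Ear1 differed by 4.98 (at least 30.0-fold). The scavenger receptor Marco was called at 1.43 ± 0.38, but liver 2 (2.86) lay above the lowest lung (2.78), and the call was lost with the scanner's own ratio (0.49). The mannose receptor Mrc1 was not called (0.38), but was called in lung with median centering (1.29).

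Of 8 Kupffer cell genes 6 were higher in liver, with a median of -2.33. The lectin Clec4f, which marks resident Kupffer cells, read 6.42, 7.01, 6.16 and 6.20 in the livers and -0.12 to 0.25 in the lungs, a difference of -6.45 ± 0.16. The macrophage-secreted Cd5l differed by -5.76 and the complement receptor Vsig4 by -5.36. Timd4, a receptor for dying cells, differed by -0.59 and was above background on 3 liver arrays and no lung array. The call of Timd4 was lost without lung 1 (-0.56) or liver 3 (-0.48). Hmox1, the heme-degrading oxygenase, was higher in lung by 0.67, but not with Cy5 alone (-0.070).

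Lymphocyte and neutrophil genes were higher in lung by smaller margins. Of 9 B cell genes 6 were called, all in lung, led by the antigen receptor chain Cd79b (4.29) and Ms4a1 (2.69), and lung 2 was lowest for 8 of the 9. Of 14 T and NK cell genes 9 were called in lung, led by granzyme A (Gzma, 4.79 ± 0.15) and Cd3d (2.62). Over the alternative settings 5 to 11 of these genes were called in lung, the fewest with Cy5 alone. Cd4 went the other way by its brightest probe, with livers at 3.04, 3.71, 3.04 and 3.81 and lungs at 0.23 to 0.44, a difference of -3.02. A further probe of Cd4 gave -0.28, so the probes disagreed in size. Of 8 neutrophil genes 6 were called in lung, led by the calprotectin chains S100a9 (4.56) and S100a8 (3.09). MHC class II genes, the antigen presentation molecules, were higher in lung for 8 of 9, led by the invariant chain Cd74 (4.55) and H2-DMb1 (3.20). With the scanner's own ratio 5 of the 9 were called in lung.

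Genes of connective tissue separated the organs as well. Of 18 extracellular matrix genes 15 were called in lung, with a median of 3.01. The elastic fiber protein Mfap4 read 6.07, 6.12, 5.21, 6.41 and 6.43 in the lungs and -0.07 to 0.93 in the livers, a difference of 5.66 ± 0.25. The fibrillar collagen gene Col3a1 differed by 4.33. Of 9 smooth muscle genes 8 were called in lung, led by calponin Cnn1 (5.20, at least 33.0-fold) and the myosin light chain Myl9 (4.61), and lung 5 was highest for 8 of the 9. The 6 mesothelial genes were all called in lung, among them mesothelin Msln (4.78), Gpm6a (4.08) and Upk3b (2.04).

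Heart muscle genes were measured in the lung samples. Of 12 such genes 9 were called in lung, with a median of 2.87. Myh6, the atrial and ventricular myosin heavy chain of the mouse heart, read 5.08, 6.15, 5.73, 6.38 and 7.11 in lungs 1 to 5 and -0.25 to 0.22 in liver, a difference of 6.09 ± 0.30. Myl4, the atrial myosin light chain, read 1.60, 3.89, 4.07, 4.28 and 5.58 against -1.99 to -1.94 in liver. Lung 5 was highest for 12 of 12 heart genes and lung 1 lowest for 10, and the mean of the group ranged from 1.31 to 3.58. The atrial light chain Myl7 differed by 3.70 (at least 17.0-fold), while the natriuretic peptide Nppa was not called and stood at 1.99 in lung 5 against -0.06 to 0.16 in the other lungs. Cardiac muscle is known to extend into the walls of large pulmonary veins in the mouse, and heart tissue taken along with the lung cannot be told apart from it here. The muscle LIM protein gene Csrp3 was higher in liver (-2.56 ± 0.45), at 4.95 to 6.04 against 1.67 to 4.36 in lung.

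Fat cell genes also varied between lungs. Of 8 genes 7 were called in lung, with a median of 2.77, and lung 1 was lowest for 6. Adipoq, the fat cell hormone adiponectin, read 0.47, 4.61, 0.94, 2.10 and 3.66 in lungs 1 to 5, a difference of 2.47 ± 0.67 from liver whose call was lost with limma's trend and robust options (adjusted p = 0.0595). The fat cell protease adipsin (Cfd) read 4.20, 7.39, 3.96, 5.82 and 7.42 and differed by 5.64 ± 0.63. Ucp1, the uncoupling protein of brown fat, read -0.13, 3.91, 3.88, 4.74 and 3.30, so lung 1 lay at the level of the livers (-0.08 to 0.37) and the other lungs did not. Its call was lost with the scanner's own ratio (adjusted p = 0.0505). The lipid droplet genes Cidea (3.74) and Plin1 (1.94) were called too. The mean of the fat cell list ranged from 1.37 to 3.97 in the lungs and from 0.02 to 0.11 in the livers, and its part in the other lung values was not tested. Of 9 exocrine pancreas genes 3 were called in liver and 1 in lung. None of the 3 defining markers of that organ was called or above background on a liver array. Amy2a5 differed by -5.91 by its brightest probe and by -0.68 by its other probe.

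**Figure D3:**
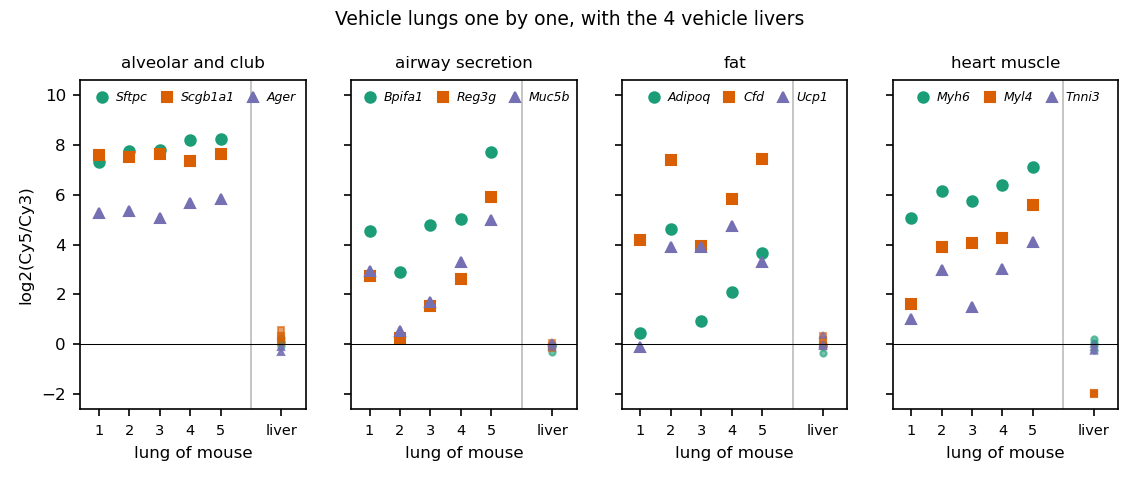
log2(Cy5/Cy3) in the lungs of mice 1 to 5, with the 4 livers as small symbols at the right of each panel, for genes of the alveoli and club cells, airway secretion, fat and heart muscle. Sftpc, Scgb1a1 and Ager stay within a narrow band, while Reg3g runs from 0.24 to 5.91, Adipoq from 0.47 to 4.61 and Myl4 from 1.60 to 5.58.

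Of 18 lung factors 16 were higher in lung, with a median of 2.59. Nkx2-1, the homeodomain factor of the lung epithelium that drives surfactant genes, read 4.42, 4.05, 3.89, 4.04 and 4.06 in lung and -0.11 to 0.01 in liver, a difference of 4.14 ± 0.10 with a bound of at least 18.1-fold. The lung mesenchyme factor Tbx4 differed by 4.89 (at least 23.4-fold) and Elf5 by 4.29 (at least 19.0-fold). Of 17 liver factors 15 were higher in liver, with a median of -4.56. The bile acid receptor Nr1h4 differed by -6.87 ± 0.17, the hepatocyte nuclear factor Hnf4a by -6.37 ± 0.14 and Onecut2 by -6.16. Hnf4a read 6.29, 6.12, 5.76 and 6.51 in the livers and -0.39 to -0.03 in the lungs. The pioneer factors Foxa1 (0.69) and Foxa2 (-0.36) are known from both endoderm-derived organs, and neither was called. Foxa1 was called in lung with median centering (1.76), with Cy5 alone (1.08) and when liver 2, which read 4.26 against 2.39 to 2.62 in the other livers, was left out (1.13). Foxa2 read 4.83 to 5.44 in lung and 5.13 to 6.21 in liver, and its sign turned with Cy5 alone (0.40) and with median centering (0.73).

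The promoters of the genes with the widest differences were searched for letters of known factor sites on both strands, in the 250 bases before the RefSeq start. A promoter was found for 369 of 475 genes at least 16-fold higher in liver and for 201 of 279 at least 16-fold higher in lung. Some genes had several promoters (454 for the liver genes, 263 for the lung genes), and a gene counted if any of them matched. GTTAAT, the HNF1 half-site, was present for 61 of the liver genes (16.5%), 7 of the lung genes (3.48%) and 6.69% of all 16362 measured genes with a promoter. CAAAGTCCA, an HNF4-type site, was present for 11 liver genes (2.98%), no lung gene and 0.464% of all. GGGCGG, the GC box, ran the other way, with 27.9% in liver, 57.2% in lung and 48.5% overall. TATAAA, the TATA box, was present for 19.5% of liver, 12.9% of lung and 13.1% of all genes with a promoter. CTCAAG, the core of an NKX2-1-type site, was present in 13.8, 18.4 and 14.8%. A match is a description of the letters and shows no binding.

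The 5 promoter stretches, chosen after the matches were seen because they belong to genes described here, show where these letters stand. Each is 150 bases ending at the base before the RefSeq start (GRCm38.p6), written 5′ to 3′ on the gene's strand, with the matched letters in capitals. For Alb (albumin; chr5:90460720-90460869, plus strand) the HNF1 half-site begins 32 bases before the start. For Cyp8b1 (sterol 12-alpha-hydroxylase; chr9:121916306-121916455, minus strand), Cyp3a11 (chr5:145879855-145880004, minus strand) and Cyp2c70 (chr19:40187287-40187436, minus strand) the HNF4-type site begins 67, 109 and 64 bases before it. For Sftpb (chr6:72304460-72304609, plus strand) the NKX2-1-type letters begin 100 and 15 bases before the start.
Alb: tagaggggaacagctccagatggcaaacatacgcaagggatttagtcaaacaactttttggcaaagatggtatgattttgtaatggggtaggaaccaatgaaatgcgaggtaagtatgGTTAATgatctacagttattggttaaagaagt
Cyp8b1: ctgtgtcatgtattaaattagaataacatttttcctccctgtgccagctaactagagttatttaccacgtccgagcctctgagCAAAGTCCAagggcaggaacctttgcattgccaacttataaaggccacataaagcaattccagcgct
Cyp3a11: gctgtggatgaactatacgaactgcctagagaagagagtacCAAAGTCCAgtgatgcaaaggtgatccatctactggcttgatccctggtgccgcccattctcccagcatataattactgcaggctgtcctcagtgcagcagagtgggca
Cyp2c70: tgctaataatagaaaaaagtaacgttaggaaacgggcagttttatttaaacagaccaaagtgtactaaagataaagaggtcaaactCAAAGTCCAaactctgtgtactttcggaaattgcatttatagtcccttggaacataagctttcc
Sftpb: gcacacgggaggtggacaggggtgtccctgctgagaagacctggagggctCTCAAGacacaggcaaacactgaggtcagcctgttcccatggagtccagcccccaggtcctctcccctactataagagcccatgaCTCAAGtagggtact

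Plasma proteins of hepatocytes made up the widest differences toward liver. All 16 plasma transport proteins were higher in liver, with a median of -6.90. Albumin (Alb) read 8.02, 7.95, 6.62 and 7.70 in livers 1, 2, 3 and 5 and 0.33, 0.44, -0.15, 0.37 and 0.11 in lungs 1 to 5, a difference of -7.35 ± 0.24. Liver 3 was the lowest. The alpha-1-microglobulin precursor Ambp differed by -11.82 ± 0.18, Apoh by -10.82 and the vitamin D binding protein Gc by -10.09. Haptoglobin (Hp), which binds free hemoglobin, had the narrowest difference of the group, -1.41, with lungs at 5.59 to 5.95 and livers at 6.78 to 7.46, and its call was lost with Cy5 alone (-0.45).

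Of 19 apolipoprotein and lipoprotein genes 18 were higher in liver, with a median of -5.53, led by Apob (-10.06), the scaffold of very-low-density lipoprotein, and Apof (-9.16). Lipoprotein lipase (Lpl), which acts at capillary walls, was higher in lung by 2.58. Of 21 clotting factors and plasma inhibitors 20 were higher in liver, with a median of -7.08, led by antithrombin Serpinc1 (-10.50) and the fibrinogen chain Fgg (-9.75). Protein S (Pros1) was not called at -0.15, and its sign turned with Cy5 alone (0.17) and with median centering (0.97). The mean of the clotting list lay between 7.06 and 7.72 in the livers and between 0.51 and 0.63 in the lungs.

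All 18 genes of the list for the terminal and lectin complement pathways were higher in liver, with a median of -5.51, led by C4bp (-10.21) and Mbl2 (-9.31). That list did not hold every terminal component: C7 was placed in the next list and was higher in lung. Complement genes known to be made outside hepatocytes divided differently: of 9 measured, 4 were higher in liver, 3 in lung and 2 were not called. The C1q chains C1qb (-1.62), C1qa (-1.60) and C1qc (-1.43) and properdin Cfp (-0.64) were higher in liver. With median centering none of these was called and Cfp turned to 0.42, and the call of Cfp was also lost without liver 3 (-0.58). C7 (2.25), the decay-accelerating factor Cd55 (1.82) and Cfd (5.64) were higher in lung. The median of this list, -0.30, ranged from -0.47 to 0.42 over the alternative settings. Of 14 acute phase genes 12 were higher in liver, among them the orosomucoid gene Orm2 (-8.58). The siderophore-binding Lcn2 was higher in lung (1.72).

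**Figure D4:**
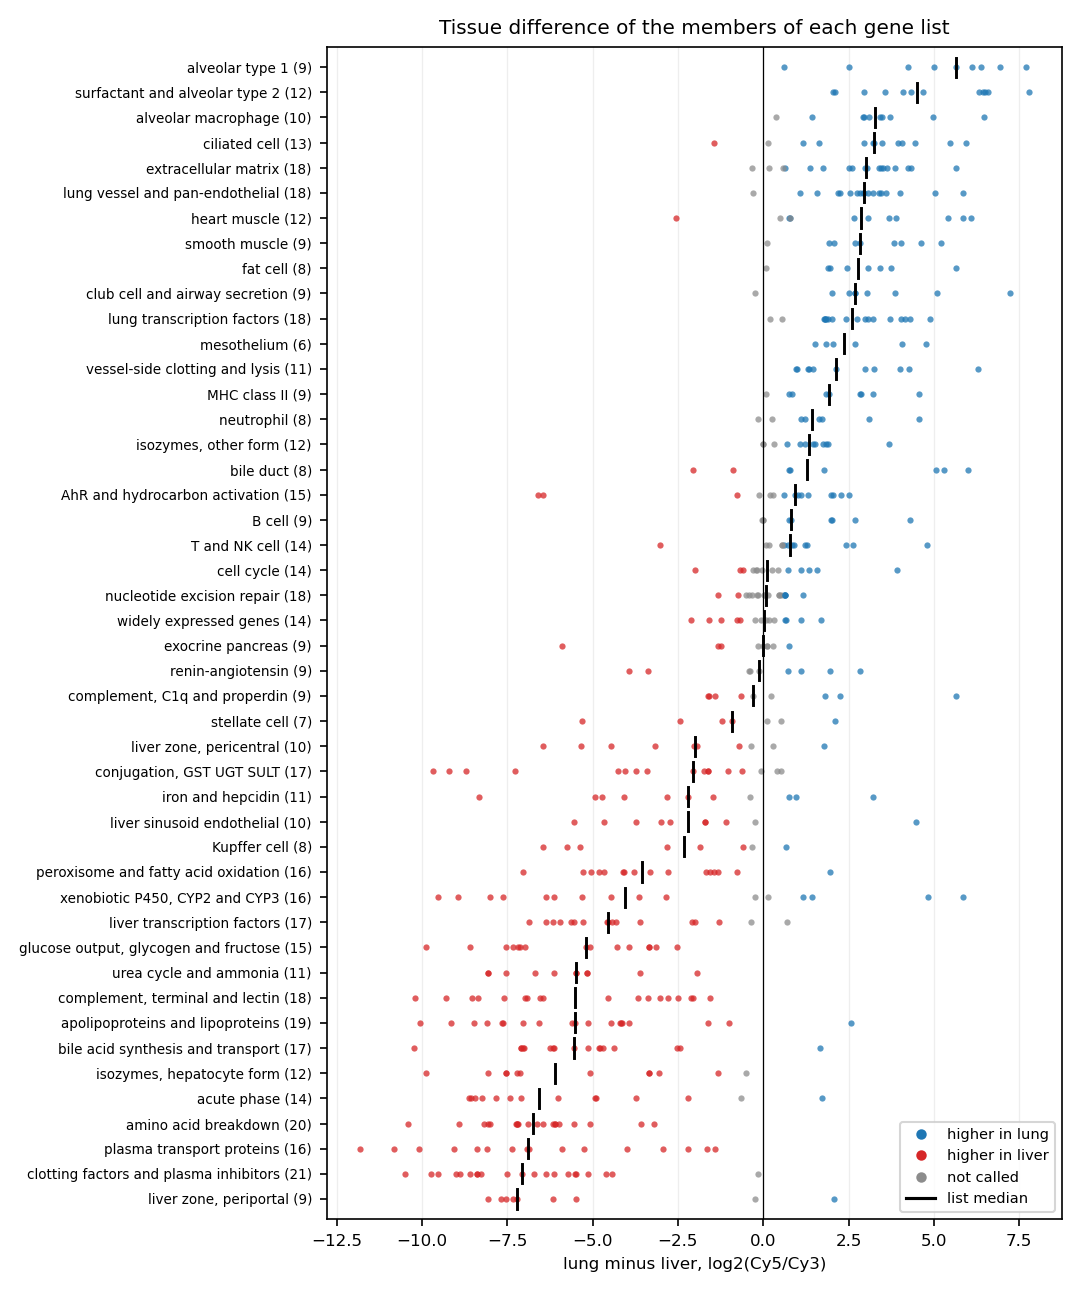
Lung minus liver difference, log2(Cy5/Cy3), of each measured member of the 46 gene lists (number measured in parentheses), colored by call, with the list median as a bar; lists are sorted by median. Alveolar type 1 genes have the highest median (5.66) and periportal liver genes the lowest (-7.21), and the lists of nucleotide excision repair, cell cycle and widely expressed genes lie around 0.

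Metabolic genes of hepatocytes were called in liver nearly throughout. Of 17 genes of bile acid synthesis and transport 16 were higher in liver, with a median of -5.54. The uptake transporter Slco1b2 differed by -10.24, Cyp8b1 by -7.05 and the canalicular export pump Abcc2 by -7.09 (at least 101-fold). Cyp7a1, the rate-limiting enzyme of bile acid synthesis, read 5.15, 5.97, 3.60 and 4.92 in the livers and differed by -5.14 ± 0.34 (at least 21.4-fold). The bile salt transporter Slc10a1 was called in lung by its brightest probe (1.65) and in liver by its other probe (-6.54), so its direction is not settled by these probes.

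All 11 genes of the urea cycle and ammonia disposal were higher in liver. Arginase (Arg1) read 8.48, 8.51, 8.06 and 8.35 in the livers and 0.02 to 0.76 in the lungs, a difference of -8.08 ± 0.15. Cps1, the entry enzyme of the cycle, also differed by -8.08, and glutamine synthetase (Glul) least, by -1.94, a call lost with median centering (-0.86). All 15 genes of glucose output, glycogen and fructose use were higher in liver, among them Fbp1 (-8.60). Pck1, the gluconeogenic carboxykinase also active in fat, read 0.17, 3.96, 0.40, 1.92 and 3.33 in lungs 1 to 5, and its high lungs were those with high Adipoq. It differed by -7.33 ± 0.67, and the part of fat in its lung values was not tested.

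All 20 genes of amino acid breakdown were higher in liver, among them Hpd (-8.91), an enzyme of tyrosine breakdown. Of 16 genes of peroxisomes and fatty acid oxidation 15 were higher in liver, led by the fatty acid binding protein Fabp1 (-7.04), and the thioesterase gene Acot1 was higher in lung (1.96). Over 10 lists of hepatocyte functions 161 of 167 genes were called in liver, 4 in lung and 2 not at all. Liver 3 was the lowest liver for 116 (72.0%) of the 161. The share over all genes was not computed, so a trait of the whole array cannot be told apart from one of these genes. Of the same 161 genes, 81 were above background on all 5 lungs and 13 on none. Of all 20651 genes, 13892 were above background on all 5 lungs and 1636 on none.

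Isozymes that catalyze the same reaction were compared as pairs. Each of 9 pairs set a form listed on the hepatocyte side against another form. The placing of Acacb and Cox4i1 on the hepatocyte side does not mark them as particular to hepatocytes. Of the 9 pairs, 5 were called on both sides and all 5 in opposite directions. For the glucose transporters, Slc2a2 differed by -7.53 and Slc2a1 by 0.69, a call lost with Cy5 alone (0.37). The other opposite pairs were the pyruvate kinases Pklr (-3.35) and Pkm (1.84), the glycogen phosphorylases Pygl (-3.36) and Pygb (1.21), the arginases Arg1 and Arg2 (1.08), and the methionine adenosyltransferases Mat1a (-7.21) and Mat2a (1.46). The pairs Gys2 and Gys1, Acacb and Acaca, and Cpt1a and Cpt1b were called on the hepatocyte side alone, with the other form not called at 0.32, -0.0024 and -0.02. With median centering the call of Cpt1a was lost (-0.33) and Gys1 was called in lung (1.37). The lung subunit Cox4i2 of cytochrome oxidase was called at 1.89 while Cox4i1 was not (-0.49), although the scanner's own ratio called it in liver (-1.24). These values compare each gene with itself between organs and not the level of the forms with each other.

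**Figure D5:**
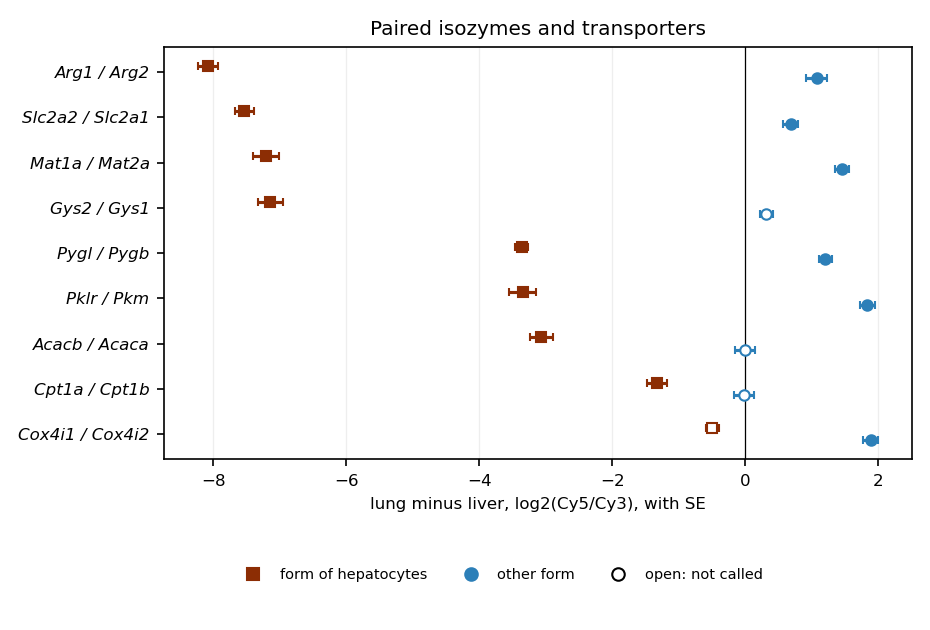
Lung minus liver difference, log2(Cy5/Cy3), with the standard error of the limma fit, for 9 pairs of a form listed on the hepatocyte side (squares) and another form (circles); open symbols were not called. The squares run from -8.08 (Arg1) to -0.49 (Cox4i1) and the called circles from 0.69 (Slc2a1) to 1.89 (Cox4i2).

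Because the study concerned a polycyclic aromatic hydrocarbon, the genes that metabolize such compounds and repair their DNA adducts were described in the unexposed organs. Of 16 xenobiotic P450 genes, mainly of families 2 and 3, and their reductase, 10 were higher in liver and 4 in lung, with a median of -4.05. Cyp3a25 differed by -9.52 (at least 447-fold) and Cyp2c29 by -8.94. In lung, Cyp2s1 was higher by 5.86 ± 0.16 and Cyp4b1, a P450 abundant in rodent lung, by 4.82 ± 0.15, with lungs from 7.86 to 8.24 and livers from 2.83 to 3.69. The P450 reductase Por was higher in lung by 1.43. Cyp2b10 was called at 1.16, but its Cy3 difference was 4.13, its livers ranged from 3.06 to 5.40, and the scanner's own ratio gave -0.71. The call was lost without lung 5 (1.06), liver 1 (0.85) or liver 5 (0.87).

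Genes of the aryl hydrocarbon receptor (AhR) and of hydrocarbon activation were called in lung for 9 of 15 and in liver for 3. The receptor Ahr read 1.49 to 2.10 in lung and 0.68 to 1.01 in liver, a difference of 0.94 ± 0.13. Cyp1a1, its inducible target, read 4.08, 2.11, 1.95, 0.73 and 0.88 in lungs 1 to 5 and -0.32 to 0.14 in the livers, none above background, a difference of 1.99 ± 0.52 (at least 2.73-fold). Lung 1 was the highest, and all lungs lay above all livers. Cyp1a2, the form constitutive in liver, read 6.78, 6.57, 5.72 and 6.46 in the livers and -0.21 to 0.06 in the lungs, a difference of -6.45 ± 0.17. Cyp1b1 was higher in lung by 0.62 ± 0.16 and was above background on no liver array, and its call was lost without lung 3 (0.56), lung 5 (0.56) or liver 2 (0.50). The epoxide hydrolases Ephx2 (-6.61) and Ephx1 (-0.78), which open reactive epoxides, were higher in liver, and Tiparp (2.03), Ptgs1 (2.27) and Aldh3a1 (2.53) were higher in lung. The call of Ephx1 was lost with median centering (-0.32). Of 17 conjugating enzymes 14 were higher in liver and none in lung, led by the glucuronosyltransferase Ugt2b5 (-9.69, at least 484-fold) and the sulfotransferase Sult2a8 (-9.21).

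Nucleotide excision repair, the pathway that removes bulky adducts, differed far less than the P450 and conjugating enzymes. Of 18 genes 5 were higher in lung, 2 in liver and 11 were not called. These counts lay near the shares of all genes (25.3% in lung, 16.6% in liver and 58.2% not called). The median of the list was 0.09 and ranged from -0.14 to 1.07 over the alternative settings. With median centering 13 were called in lung and 0 in liver, and with Cy5 alone 1 in lung and 4 in liver. Ercc1 (1.17) and the damage sensor Xpc (0.62) were higher in lung, and Rad23b (-1.31) and Gtf2h2 (-0.75) were higher in liver, Gtf2h2 at 0.42 with median centering. The calls of Ercc1 (0.50) and Xpc (0.14) were lost with Cy5 alone, and that of Rad23b with median centering (-0.18). Of 14 cell cycle genes 5 were higher in lung and 3 in liver, with a median of 0.10 that ranged from 0.01 to 1.17 over the alternative settings, and with median centering 10 were called in lung and 1 in liver. Cyclin D1 (Ccnd1) read 0.71 to 1.23 in lung and -2.89 to -3.01 in liver, a difference of 3.93 ± 0.11. Pcna (1.59) and Mki67 (1.35) were higher in lung, although both lay below the reference in each organ. Cdk1 was called in liver (-1.99), but no liver array was above background, its Cy5 difference was -0.10 and its Cy3 difference 1.89, and with Cy5 alone after quantile normalization it turned to 0.26. Its call was lost with limma's trend and robust options (adjusted p = 0.0728).

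In the renin-angiotensin system, in which the liver supplies the precursor and lung endothelium the converting enzyme, the precursor Agt differed by -3.94 ± 0.13 and the receptor Agtr1a by -3.39. The converting enzyme Ace (2.84 ± 0.16) was higher in lung, as were the angiotensinases Enpep (1.098, but -0.42 by the scanner's own ratio) and Lnpep (0.71, a call lost with Cy5 alone at 0.47). Of 11 iron genes 7 were higher in liver, led by the transferrin sensor Tfr2 (-8.32) and the hormone hepcidin (Hamp, -4.94). Bmp6, the signal that raises hepcidin, was higher in lung by 3.21 ± 0.11, as were Tfrc (0.97) and Fth1 (0.76). The call of Fth1 was lost with median centering (0.69) and with the scanner's own ratio (0.11).

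Genes of liver zones and of minor liver cells were less uniform. Of 10 pericentral genes 7 were higher in liver, and Tbx3 was higher in lung (1.78). Of 9 periportal genes 7 were higher in liver, among them Hsd17b13 (-7.70), and the epithelial cadherin Cdh1 was higher in lung (2.07), a call lost with the scanner's own ratio (0.15). Of 8 bile duct genes 6 were higher in lung, with a median of 1.28, led by Krt19 (5.99) and Krt7 (5.31), keratins that other simple epithelia also make. The duct factor Sox9 (-2.05, at least 3.38-fold) was higher in liver. Of 7 stellate cell genes 4 were higher in liver, led by Colec11 (-5.32) and Ngfr (-2.44), and the retinol acyltransferase Lrat was higher in lung (2.10), a call lost with that ratio (1.29).

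Of 14 widely expressed genes often used as references, 5 were higher in liver, 4 in lung and 5 were not called, with a median of 0.02 that ranged from -0.27 to 0.18 over the alternative settings. Actin (Actb) was higher in lung by 1.69 ± 0.15 and Ywhaz by 1.12. Pgk1 (-1.59) and Gapdh (-0.76) were higher in liver. Gapdh read -1.58 to -1.28 in lung and -1.07 to -0.35 in liver, without overlap. The call of Ywhaz was lost with Cy5 alone (0.39) and that of Gapdh with median centering (-0.72).

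The organ difference was looked for again in the dosed mice, which are other animals on the same slides. At the doses of 12.5, 25 and then 50 mg/kg-bw/day, with 5 lungs and 5 livers each, 14792 (26.6%), 15083 (27.1%) and 14894 (26.7%) probes were called. Of the 15112 vehicle calls, 13424 (88.8%), 13320 (88.1%) and 12985 (85.9%) were called again in the same direction, which was 90.8, 88.3 and 87.2% of the calls at the dose. Called in the opposite direction were 0, 2 and 0 probes. The difference in Sftpc was 7.82, 7.89 and 7.88 at the rising doses, and that in Alb was -7.32, -7.09 and -6.82. The difference in Myh6 was 4.42, 3.63 and 4.49, against 6.09 in vehicle mice. That in Bpifa1 was 3.85, 3.11 and 2.59, against 5.10, and that in Ucp1 0.19, 0.21 and -0.09, against 3.08. Cy5 was above background at up to 77.5, 73.3 and 78.9% of probes on single dosed liver arrays, more than on any vehicle liver array (41.7%).

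The test of the difference between the organ contrasts (interaction of organ and dose, limma) called 0 probes at 12.5, 2 at 25 and 12 at 50 mg/kg-bw/day, with 1721, 2631 and 4017 at an unadjusted p under 0.05. At 50 mg/kg-bw/day the widest was Cyp1b1, whose organ difference exceeded that of vehicle by 3.55 ± 0.53 (adjusted p = 0.00161), followed by Ucp1 (-3.17, adjusted p = 0.0395) and the AhR repressor Ahrr (2.22, adjusted p = 0.00147). Ahrr was not called in vehicle mice (-0.11), and its sign there turned with Cy5 alone (0.13), with median centering (0.19) and with the scanner's own ratio (1.12). Cyp1a1 differed between lung and liver by 2.30, 4.41 and 5.79 at the rising doses, and its interaction was not called.

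Vehicle forestomach (4 arrays on the lung slides) gave another organ beside both. These comparisons share the lung or liver arrays with the main one, so their values are given side by side. Lung differed from forestomach at 11044 probes (19.8%) and liver from forestomach at 12771 (22.9%). Forestomach read 4.85 ± 0.30 (SD, n = 4) for Scgb1a1, and lung exceeded it by 2.69 while liver differed from it by -4.54, and 5.50 ± 0.16 for Cyp2f2. For Cdh5 forestomach read 2.07 ± 0.40, and lung exceeded it by 5.12 while liver did by 0.10. For Cnn1 it read 6.86 ± 0.34, above lung and liver. For Clec4f and Ager no forestomach array was above background. Alb read 1.56 ± 0.96 in forestomach and Arg1 3.35 ± 0.51, both between lung and liver.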

How the data were processed

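Per the labels, total RNA from random tissue sections was labeled with Cy5 and hybridized on 2-color Agilent mouse arrays with Cy3-labeled universal reference RNA, and the authors deposited scanner output with median red and green signal intensities per spot. The log2 ratio of these deposited intensities was computed over spots of genes, with control spots and outlier flags left out, loess-normalized array by array, and spots of the same probe were averaged. The deposited log10 ratio of the scanner software served as an alternative. The array software was Agilent Feature Extraction 10.7.3.1 for lung and 11.0.1.1 for liver, per the file headers. The lungs lay on slides that also held forestomach and the livers on other slides. The values are those of scanner files, so read depth does not apply, and the number of arrays (5 lung, 4 liver) limits precision.

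Lung and liver were compared with limma 3.58.1 in R 4.3.3 (lmFit, eBayes), with p-values adjusted over 55681 probes by Benjamini-Hochberg, with thresholds of 0.05 for the adjusted p and 1.5 for the fold. No block was used in the reported fit. Same-numbered arrays come from the same mouse by the labels: residuals of the organs of mice 1, 2, 3 and 5 correlated at 0.003, 0.167, 0.090 and 0.126, and those of different mice at -0.166 to 0.089. A gene was represented by its brightest probe. Gene names came from matching the accessions given on the arrays to RefSeq transcripts: 27224 probes matched 1 symbol, 43 several and 28414 none. Where probes of a gene were called in opposite directions (2 of 121 list genes with several probes, Gstm2 and Slc10a1), the gene is uncertain. Promoters were from RefSeq GRCm38.p6. The arrays compared and the 46 gene lists were chosen with earlier results of these data known. Named are the 10 genes with the widest difference in each direction among genes above background on all arrays, not saturated and without overlap, the widest members of each list with members called the other way, and isozyme pairs. Other genes were chosen after their values were seen. Some list members are not reported here. The fit was tested on simulated data. Alternatives were other background corrections, normalizations, channels, filters, thresholds, blocks and left-out arrays.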

Additional observations from a re-analysis of the deposited data

Results flagged for a closer look

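In 29 of 400 groups of 4 livers or 5 lungs tested for named genes, 1 array stood apart from the others of its organ by Dixon's test. Chance flags about 1 in 20 groups, and no cause was tested. The array of liver mouse 2 stood apart in Abca3 (0.49, others 1.25 to 1.26), Mki67 (-5.88, others -5.21 to -5.08), Pygl (6.25, others 6.62 to 6.66), Cd79b (-4.43, others -3.67 to -3.61), Acot1 (1.52, others -0.35 to -0.10), Foxa1 (4.26, others 2.39 to 2.62), Lyve1 (2.24, others 1.23 to 1.36) and Bpifa1 (-0.31, others -0.07 to -0.02). The array of liver mouse 3 stood apart in Cyp2f2 (6.63, others 7.29 to 7.40), Fabp1 (10.43, others 11.36 to 11.41), Cyp2c70 (8.11, others 9.01 to 9.09), Ambp (10.81, others 11.73 to 11.78), Mbl2 (8.54, others 9.33 to 9.49), Hpd (7.93, others 8.95 to 9.15) and Hamp (5.44, others 6.15 to 6.26). The array of liver mouse 5 stood apart in Adipoq (-0.33, others -0.05 to 0.00). The array of lung mouse 1 stood apart in Cpt1a (0.61, others 1.23 to 1.33) and Lrat (4.44, others 2.93 to 3.20). The array of lung mouse 2 stood apart in Por (0.75, others 1.18 to 1.28), Gzma (4.10, others 4.70 to 4.89), Clec4f (0.25, others -0.12 to -0.04) and H2-Q10 at its probe with the wider difference (1.25, others 0.39 to 0.63). The array of lung mouse 3 stood apart in S100a6 (-0.99, others -0.74 to -0.67) and Tmem100 (4.52, others 5.65 to 6.03). The array of lung mouse 4 stood apart in Arg1 (0.76, others 0.02 to 0.19). The array of lung mouse 5 stood apart in Msln (-0.48, others 0.21 to 0.39), Tspan13 (4.61, others 4.18 to 4.30), Upk3b (0.63, others 1.26 to 1.47) and Nppa (1.99, others -0.06 to 0.16).

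The organ difference of 3 named genes changed with dose by the interaction test of limma, at 50 mg/kg-bw/day against vehicle. Lung minus liver rose by 3.55 for Cyp1b1 (adjusted p = 0.00161) and by 2.22 for Ahrr (adjusted p = 0.00147), and changed by -3.17 for Ucp1 (adjusted p = 0.0395). The vehicle lungs of Ucp1 ranged from -0.13 to 4.74.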

How the results depend on the processing

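Of 199 probes of named genes, 155 kept their direction and their side of the threshold under every alternative, and 15 changed sign under at least 1. Calls were lost with no change of sign for 10 under median centering, 7 with Cy5 alone and 9 with the scanner's own ratio, and 193 had a value with dim probes left out. The called probes numbered 9345 at 2-fold (5535 lung, 3810 liver), 3699 at 4-fold (2042 and 1657) and 8658 with 1 probe a gene (5229 and 3429). Median centering gave 16098 higher in lung and 2447 higher in liver. Leaving out 1 array gave 14883 to 15446 calls, 8736 to 8862 in lung and 6147 to 6646 in liver, the last without lung 3. With the mouse as a block, over the 4 pairs, 15146 probes were called (8906 lung, 6240 liver), and no call of a named gene changed. The reference channel gave 2062 calls, 507 with median centering, and 1388 to 2767 when 1 array was left out, the lowest without liver 2. The median over probes was -0.0108, and 0.132 with dim probes left out.

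Values changed sign as follows, and the causes were not tested. With median centering the differences were 0.83 for Acaca, 0.19 for Ahrr, 0.42 for Cfp, 0.61 for Cpt1b, 0.18 for Cyp2f2, 0.73 for Foxa2, 0.42 for Gtf2h2, 0.70 for Kdr, 0.97 for Pros1 and 0.82 for Stab1. With Cy5 alone they were 0.13 for Ahrr, 0.26 for Cdk1, 1.43 for Cyp2f2, 0.40 for Foxa2, -0.38 for Gys1, -0.070 for Hmox1, 0.31 for Kdr, 0.17 for Pros1 and 0.45 for Stab1. With the scanner's own ratio they were 1.12 for Ahrr, 0.0079 for Cpt1b, -0.71 for Cyp2b10 and -0.42 for Enpep. Acaca was 0.018 with normexp and 0.00028 with the replicate block, and Cpt1b was 0.0091 with the block. Leaving out 1 array gave values from -0.14 to 0.18 for Acaca and from -0.11 to 0.10 for Cpt1b. In the fit of all 39 lung and liver arrays the calls of Cyp1b1 (0.62) and Cyp2b10 (1.16) were lost.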
